A study of Homo sapiens with 45 samples.

Results

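The genes described here are 50 axon guidance ligands and receptors, and the measurements are their DNA contacts within a chromosome (cis contacts). A contact joined a captured fragment, the bait, to another fragment, the other end. It was counted for a gene when either fragment lay within 1000 bp of an outermost RefSeq end of that gene. By this rule the genes took part in 281 of the 152688 cis contacts listed, and no contact touched more than 1 of them. At least 3 contacts were found for 28 genes, 1 or 2 for 5 genes and none for 17 genes. The contacts came from poised-enhancer capture Hi-C, in which neighbouring DNA in fixed nuclei is ligated and fragments holding a poised enhancer are pulled down with RNA probes. The cells were HNES1, a long-established human embryonic stem cell line, taken 5 days into the transition from naive to primed. All cultures received solvent or compound from 24 h before day 0. The control group had DMSO, the second group had UNC6852 at 2.5 µM, a degrader of EED, a core subunit of Polycomb repressive complex 2 (PRC2), and the third had UNC1999 at 1 µM, an inhibitor of the catalytic EZH1 and EZH2 subunits. Each group held 15 libraries from 3 biological replicates in 2 batches, deposited as 1 pooled profile, so no comparison below has a replicate error or a test. The doses of the compounds differ, and their values are set side by side without a comparison of strength. One cell line stands behind all 3 profiles, its identity could not be checked in contact data, and no EED or histone methylation signal was analysed here.

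Axon guidance proteins steer growing nerve fibres by attraction or repulsion. Ephrins on one cell bind Eph receptor tyrosine kinases on another, Slits bind Robo receptors, netrins bind DCC and UNC5 receptors, and secreted semaphorins act through neuropilins and plexins. Genes of neural development are often silent in pluripotent cells and carry the histone mark that PRC2 writes, and poised enhancers are elements that carry it beside marks of open chromatin. No result below rests on this background.

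The captured DNA can be read at a few of the genes. Of the 50, 42 had an entry in the RefSeq promoter table of GRCh38.p14, and in 13 of them some of the 250 bases before the start lay on a captured fragment. The whole stretch was captured in the 6 genes whose sequences follow, shown because a captured fragment with contacts includes this DNA. That fragment carried all 3 contacts of SEMA6D, 6 of the 16 of EPHA3, 4 of the 8 of EPHB2, 4 of the 12 of PLXNA2, 8 of the 21 of RGMA and 1 of the 6 of SLIT2. The rest were on other fragments at the ends of these genes. The stretches are chr3:89107371-89107620 (plus strand) for EPHA3, chr1:22710588-22710837 (plus) for EPHB2, chr15:47183839-47184088 (plus) for SEMA6D, chr4:20251655-20251904 (plus) for SLIT2, chr1:208244385-208244634 (minus) for PLXNA2 and chr15:93089212-93089461 (minus) for RGMA. Each is written in the direction of the gene and ends at the base before the start, with every CG dinucleotide in capitals.
EPHA3: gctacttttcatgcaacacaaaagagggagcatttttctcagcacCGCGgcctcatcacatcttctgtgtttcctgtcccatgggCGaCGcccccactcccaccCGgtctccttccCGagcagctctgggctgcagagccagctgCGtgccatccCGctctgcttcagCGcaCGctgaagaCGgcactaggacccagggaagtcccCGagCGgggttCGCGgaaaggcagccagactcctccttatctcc
EPHB2: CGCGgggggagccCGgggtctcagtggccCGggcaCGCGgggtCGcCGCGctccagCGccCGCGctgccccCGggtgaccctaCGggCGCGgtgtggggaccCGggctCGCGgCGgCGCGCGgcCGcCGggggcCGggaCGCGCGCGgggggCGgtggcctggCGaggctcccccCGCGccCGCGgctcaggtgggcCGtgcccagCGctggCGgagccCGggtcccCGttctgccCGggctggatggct
SEMA6D: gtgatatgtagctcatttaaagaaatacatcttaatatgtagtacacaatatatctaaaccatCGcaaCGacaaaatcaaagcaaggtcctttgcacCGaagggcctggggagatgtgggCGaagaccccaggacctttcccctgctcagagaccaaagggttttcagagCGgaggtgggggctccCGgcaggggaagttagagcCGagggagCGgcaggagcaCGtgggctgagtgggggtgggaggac
SLIT2: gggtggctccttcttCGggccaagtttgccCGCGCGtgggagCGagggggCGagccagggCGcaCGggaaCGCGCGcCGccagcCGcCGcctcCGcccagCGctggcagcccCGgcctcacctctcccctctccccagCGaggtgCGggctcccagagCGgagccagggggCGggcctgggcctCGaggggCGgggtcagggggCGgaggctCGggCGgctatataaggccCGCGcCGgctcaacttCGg
PLXNA2: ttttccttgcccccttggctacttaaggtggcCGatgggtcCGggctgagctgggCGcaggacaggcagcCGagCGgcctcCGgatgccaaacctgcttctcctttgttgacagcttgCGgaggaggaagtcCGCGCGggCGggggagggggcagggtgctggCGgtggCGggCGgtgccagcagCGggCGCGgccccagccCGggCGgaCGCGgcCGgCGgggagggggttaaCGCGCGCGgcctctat
RGMA: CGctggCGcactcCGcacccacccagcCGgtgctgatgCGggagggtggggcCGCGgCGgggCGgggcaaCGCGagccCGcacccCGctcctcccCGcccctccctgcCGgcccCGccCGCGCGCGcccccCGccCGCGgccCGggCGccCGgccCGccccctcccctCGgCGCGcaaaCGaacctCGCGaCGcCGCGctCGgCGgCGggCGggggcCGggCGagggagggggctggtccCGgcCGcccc
CG dinucleotides were most frequent before RGMA, with 44 in 250 bases, and EPHB2, with 42. SLIT2 had 30, PLXNA2 27, EPHA3 15 and SEMA6D 9. Over the 42 genes the median was 19.5, beside 17 over 15843 promoters. An observed to expected CG ratio of 0.6 or more was found in 81.0% of the 42 and in 63.4% of all promoters. The letters GATC, which DpnII cuts and which read the same on both strands, stood in 33.3% of the 42 windows and in 34.0% of all. Among the 6 stretches printed, none held GATC. Each was chosen as lying whole on 1 captured fragment, and a stretch inside a fragment cut at GATC holds no such site. In 8 genes the start in the promoter table lay more than 1000 bp from the outermost RefSeq end that the counting used, among them EPHB6 (7680 bp), ROBO3 (10750 bp), SEMA3D (63187 bp) and ROBO2 (404205 bp). "Start" and "5′ end" below mean the outermost end.

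Captured fragments with at least 1 listed contact, cis or between chromosomes, numbered 53 at the ends of 29 genes. Of the 17 genes without cis contacts, 1 had such a fragment at the ends counted, EPHA8. Captured fragments also covered part of the 250 bases before the promoter table's starts of SEMA3D (206 bases) and PLXNA4 (17 bases), but these starts lie 63187 and 72218 bp from the ends counted, so contacts there were not included. The others without a cis contact were EPHA4, EPHA5, EPHA7 and EPHB4 of the Eph receptors, the ligand EFNB2, the semaphorins SEMA3A, SEMA3C, SEMA3D, SEMA3E, SEMA5A and SEMA6A, NTNG1, the receptors UNC5B and UNC5D, and the plexins PLXNA4 and PLXNC1. This is a statement about the capture and the listing, not about whether those genes have contacts. The gene end lay on the bait in 233 of the 281 contacts, on the other end in 42 and on both in 6. Most contacts were long. The median distance between fragment centres was 349 kb, beside 314 kb for all cis contacts, with 177 contacts between 100 and 500 kb, 77 between 500 kb and 2 Mb and 15 beyond 2 Mb. The far fragment lay between protein-coding genes in 179 contacts, within another gene in 55 and within the same gene in 41.

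Strength is given as the CHiCAGO score, which measures how far the reads joining 2 fragments exceed a background model. Only contacts that reach 5 in some profile are listed, and a contact counts as called wherever it reaches 5. In DMSO 124 of the 281 contacts were called, or 44.1%, beside 42.4% of all cis contacts. UNC6852 had 110 calls, or 39.1%, beside 46.1%, and UNC1999 had 106, or 37.7%, beside 42.3%. At these settings the axon guidance genes thus had fewer calls in the treated profiles than in DMSO, while all cis contacts together had more calls in UNC6852 and a like share in UNC1999. For UNC6852 this depended on the settings: with gene ends widened to 5000 bp DMSO had 353 calls and UNC6852 351, and at a call threshold of 10 they had 7 and 8. At 5000 bp EPHB3 alone held 185 of the 772 contacts. The ephrin genes, at 16, 5 and 8 calls in DMSO, UNC6852 and UNC1999, had 11 fewer calls in UNC6852 than in DMSO. The net count over all the genes was 14 fewer. Losses and gains at other genes largely offset each other, for example EPHA2 with 7 DMSO and 2 UNC6852 calls and EPHA6 with 1 and 5. Read numbers behind the scores were unknown. Where 3 values or counts stand in a row below, their order is DMSO, UNC6852, UNC1999. A pair of differences is UNC6852 minus DMSO, then UNC1999 minus DMSO.

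Most contacts of these genes were called in a single profile. That held for 239 of 281 (85.1%), beside 77.5% of all cis contacts, and 17 contacts (6.05%) were called in all 3 profiles, beside 8.33%. Of the 124 contacts called in DMSO, 24 were also called in UNC6852 (19.4%, exact 95% interval 12.8 to 27.4) and 24 in UNC1999 (19.4%, 12.8 to 27.4). The other cis contacts gave 31.4% (31.0 to 31.7) and 29.3% (28.9 to 29.6). Between the treated profiles, 28 of the 110 UNC6852 calls were also called in UNC1999 (25.5%, 17.6 to 34.6), beside 29.1% elsewhere. The comparison with other contacts was also made by distance. Below 500 kb the shares of DMSO calls found again were 17.9% (10.4 to 27.7) in UNC6852 and 20.2% (12.3 to 30.4) in UNC1999, beside 35.5% and 33.2% for other contacts of that range. At 500 kb or more they were 22.5% (10.8 to 38.5) and 17.5% (7.34 to 32.8), beside 18.0% and 16.5%. EPHA3 alone gave 6 of the 9 such long contacts found again in UNC6852 and 6 of the 7 in UNC1999. The shares at 500 kb or more therefore rest largely on 1 gene, and the split was not repeated without it. The intervals cover counting error only, contacts of 1 bait are not independent, and the difference from other contacts was not tested. When the ends were widened to 5000 bp, the genes had 772 contacts, 185 of them of EPHB3. The share of DMSO calls found again in UNC6852 then became 29.5%.

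**Figure D1:**
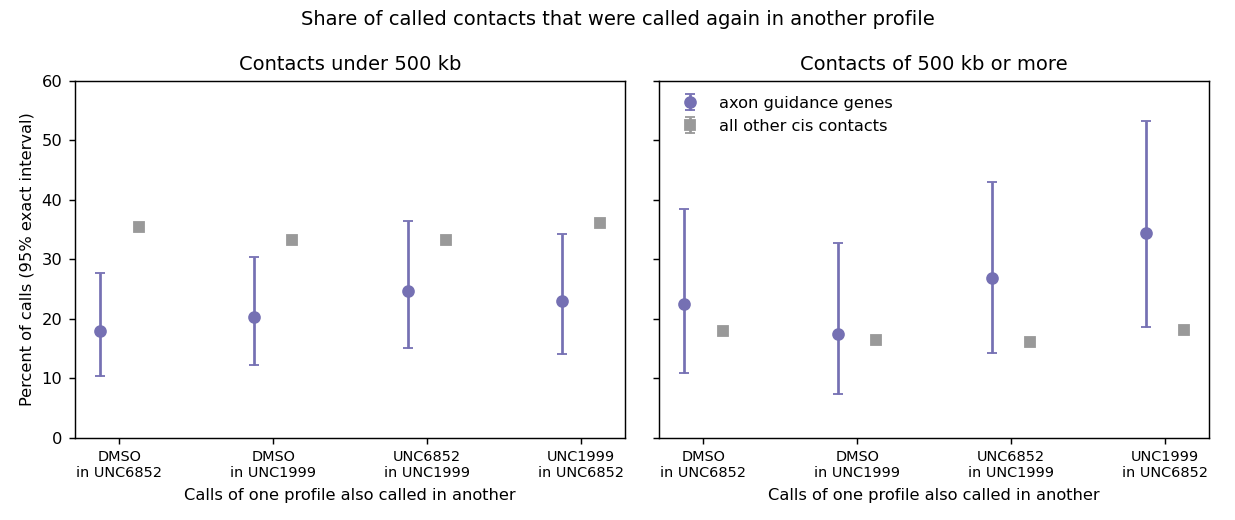
Percent of the contacts called in one profile that were also called in a second, for axon guidance genes and for all other cis contacts, split at a distance of 500 kb. Points are shares and bars exact 95% intervals (too narrow to see for the other contacts). Below 500 kb the DMSO points of the axon guidance genes lie at 17.9% and 20.2%, under those of other contacts at 35.5% and 33.2%. At longer distances they lie at 22.5% and 17.5%, beside 18.0% and 16.5%.

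A single pooled score is imprecise, and neighbouring fragments give a measure of this. Scores on 1 bait at other ends no more than 2 fragments apart differed within a profile by a median of 0.58 on the asinh scale (87 pairs at these genes), and scores of neighbouring baits on 1 other end by 0.44 (28 pairs). Over all cis contacts these medians were 0.47 and 0.46. Pairs of captured fragments listed from both sides differed by a median of 0.18 within a profile (444 pairs of all cis contacts). The 1 such pair at these genes, at EFNA4, differed by a median of 0. It scored 0 from both sides in both treated profiles, so this value says little about precision. The asinh scale is close to a logarithm for high scores and allows scores of 0. The same contact differed by 0.99 between UNC6852 and DMSO, by 0.89 between UNC1999 and DMSO and by 0.80 between UNC6852 and UNC1999. Over all cis contacts the values between profiles were 0.70 each. The values between profiles rest on every listed contact, and those within a profile only on neighbouring contacts that were both listed. A contact is also listed when only 1 profile reaches 5, which widens differences between profiles. The values within and between profiles therefore do not compare like with like. Since a contact must reach 5 somewhere to be listed, a gene with few contacts can show a large difference through 1 call. The strongest contact of a gene below is the one with the highest mean asinh score over the 3 profiles, which need not hold the highest single score.

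For each of the 28 genes with 3 or more contacts the mean asinh score was taken in each profile. The median difference from DMSO was 0.07 for UNC6852 (quartiles -0.28 and 0.27) and 0.03 for UNC1999 (quartiles -0.40 and 0.32), beside 0.07 and -0.01 over 4979 genes. UNC6852 exceeded DMSO at 16 genes and lay below it at 12, where 56.4% of all genes were higher and 43.5% lower. In UNC1999 the counts were also 16 and 12, where 49.1% of all genes were higher and 50.9% lower. The share of genes higher than in DMSO was therefore 57.1% in both contrasts, close to that of all genes in UNC6852 and above it in UNC1999. A difference of 0.5 or more upward was seen in 5 genes in UNC6852 (18.3% of all genes) and 5 in UNC1999 (15.7%). Downward it was seen in 6 genes (13.6%) and 7 genes (16.3%). Both contrasts share the DMSO profile. EFNA1, EFNA2, EFNA3, EFNA4 and EPHA2 were lower by at least 0.5 in both (7.13% of all genes), and EPHB1, SLIT2 and EPHA6 higher in both (6.31%). Among contacts of up to 2 Mb, EFNA4 differed by only -0.38 in UNC6852 and -0.37 in UNC1999. EPHA6 then differed by 0.78 and 0.20, and the other genes named stayed past 0.5 in both.

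**Figure D2:**
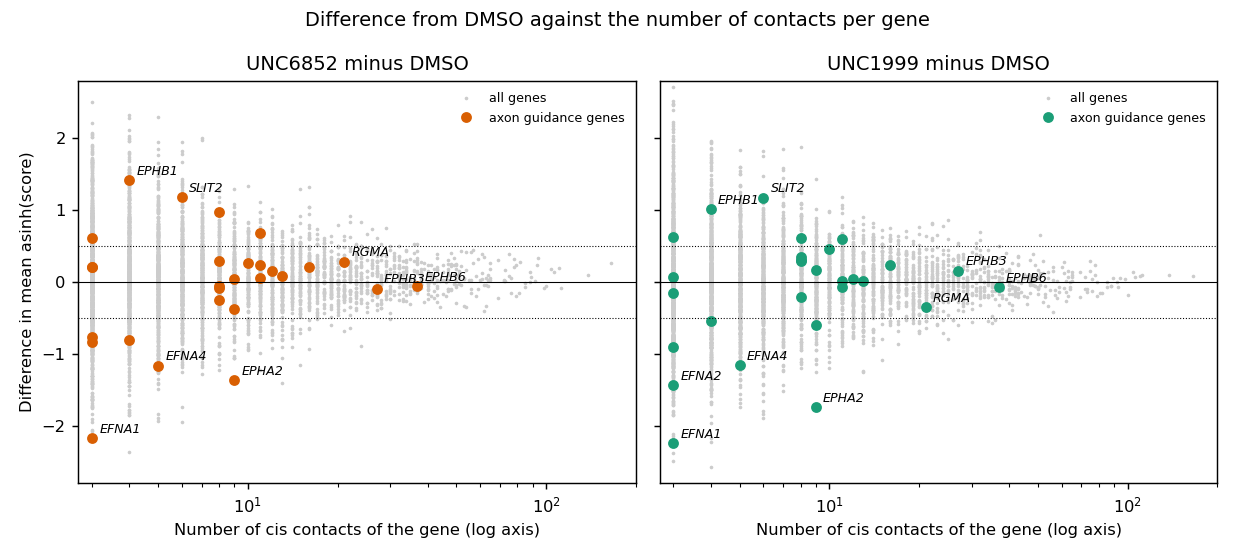
Difference in mean asinh score from DMSO (vertical axis) against the number of cis contacts of a gene (log axis), for the 28 axon guidance genes in colour and all 4979 genes in grey, with dotted lines at 0.5 either way. The spread narrows as contacts increase: of the 18 axon guidance genes with fewer than 10 contacts 10 lie beyond 0.5 in UNC6852, and of the 10 genes with more contacts 1 does.

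The number of contacts went with the size of the differences. In UNC6852 10 of the 18 genes with fewer than 10 contacts passed 0.5 in either direction (40.6% of all such genes), and 1 of the 10 genes with 10 or more did (13.0%). In UNC1999 these counts were 11 of 18 (40.6%) and 1 of 10 (13.4%). The 1 gene with 10 or more contacts was EPHA6 in both.

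**Figure D3:**
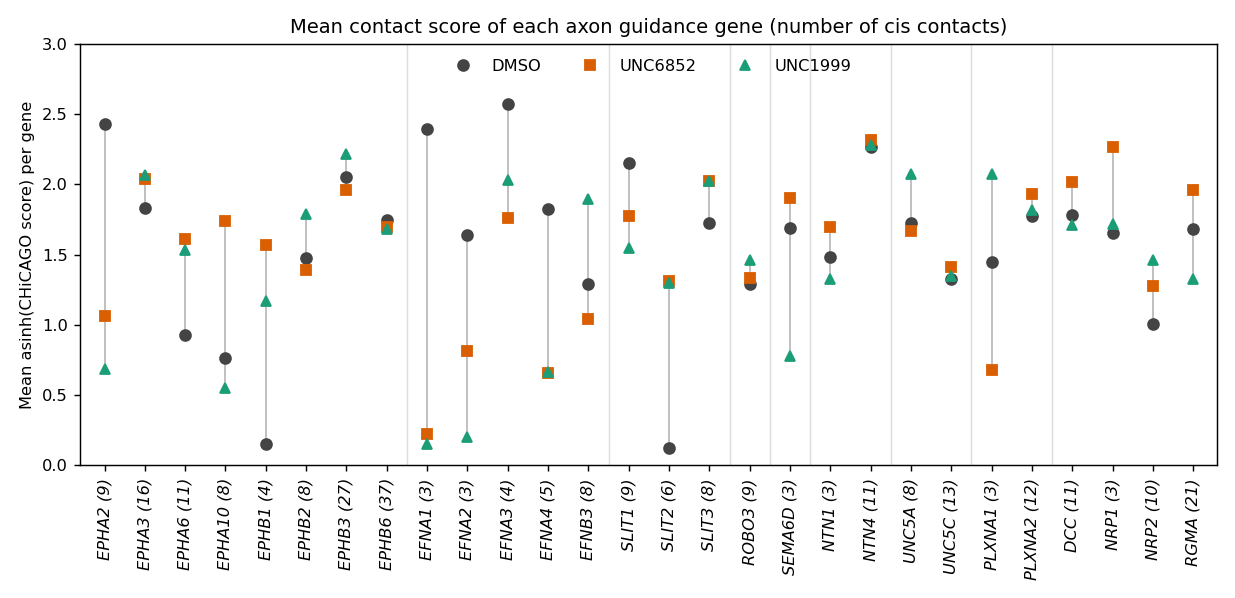
Mean asinh CHiCAGO score of each gene with 3 or more cis contacts in the pooled DMSO, UNC6852 and UNC1999 profiles, 1 point per profile, ordered by family with the number of contacts in brackets. A grey line joins the lowest and highest profile. The A-type ephrins and EPHA2 have their DMSO point on top, EPHB1 and SLIT2 have it near 0, and NTN4, EPHB6 and UNC5C show 3 points close together.

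Ephrins are the membrane-bound ligands of the Eph receptors. The ephrin genes had 24 contacts, of which DMSO called 16, UNC6852 5 and UNC1999 8. Their mean asinh scores were 1.82, 0.96 and 1.26 in that order, and none of the 5 measured genes was higher in UNC6852 than in DMSO. The calls were mostly of 1 profile, 13 of them DMSO alone. EFNA4, EFNA3 and EFNA1 lie side by side on chromosome 1, with EFNA4 starting at 155063740, EFNA3 at 155078837 and EFNA1 at 155127876, so they are neighbouring loci rather than independent ones.

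EFNA1 encodes an ephrin attached by a lipid anchor. Its 3 contacts scored 5.27, 5.31 and 5.77 in DMSO, just past the call. The same contacts scored 0.19, 0 and 0.49 in UNC6852 and 0, 0 and 0.48 in UNC1999. All 3 were higher in DMSO than in either treated profile, and the differences in mean were -2.18 and -2.24. At ends of 5000 bp it had 8 contacts and differences of -0.61 and -0.63. EFNA4 had 5 contacts with 3, 1 and 1 calls. Among them a pair of captured fragments 107087 kb apart was listed from both sides, at 5.32 and 5.04 in DMSO and 0 in both treated profiles. Another EFNA4 contact, with the end of the potassium channel gene KCNN3 192 kb away, scored 2.43, 0.64 and 9.10, the reverse order. The EFNA4 differences were -1.17 and -1.16, and at 5000 bp, with 23 contacts, -0.06 in both.

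EFNA3 behaved otherwise. A fragment at its start was joined to 3 baits only 3.4 to 3.9 kb away, in the gene body of the EFNA4-EFNA3 readthrough. The bait nearest to it scored 11.5, 7.41 and 7.01. A second scored 5.05, 5.05 and 6.81, so these 2 were called in all 3 profiles. The fourth contact, at 165 kb, scored 5.28, 0 and 0.54 and gave most of the gene's differences of -0.81 and -0.54. At 5000 bp the differences were -0.05 and -0.01 over 26 contacts. EFNA2 on chromosome 19 had 3 contacts. The highest score in DMSO, with an end of PLK5 at 249 kb, was 6.79 beside 0 and 0, and the strongest contact, over 494 kb, scored 0, 5.71 and 0.65. Its differences were -0.83 and -1.44. EFNB3, a transmembrane ephrin, had 8 contacts with 4, 1 and 3 calls and differences of -0.25 and 0.61. Its highest score joined it at 146 kb to a bait at the ends of KDM6B, TMEM88 and NAA38, with scores of 0.48, 0.68 and 9.36. The strongest contact of EFNB3 joined fragments at its own ends over 3.42 kb at 5.29, 3.75 and 4.10. KDM6B is a demethylase of the histone mark that PRC2 writes. EFNA5 had 1 contact, over 296 kb, at 3.26, 1.51 and 6.16.

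The Eph receptors held the most contacts of any family, 120, with 50, 50 and 49 calls, and 9 were called in all 3 profiles. The family's mean asinh scores were 1.67, 1.72 and 1.68. These nearly equal sums covered genes that went different ways.

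EPHA2, a receptor for A-type ephrins that is also abundant in epithelia, lies on chromosome 1 at 16124337-16156069, on the minus strand. It had 9 contacts, of which DMSO called 7, UNC6852 2 and UNC1999 1. Its median score was 6.19 in DMSO and 0.76 in UNC6852, and it was 0 in UNC1999. The differences of -1.37 and -1.75 were the lowest among genes with at least 5 contacts. Its highest score, 16.9 in DMSO beside 9.92 and 0 in the treated profiles, joined it to a fragment 218622 kb away on the same chromosome. Scores near the gene did not follow this order. In 3 contacts over 52 to 80 kb, on the side of FAM131C, it had mean asinh scores of 1.75, 1.74 and 1.82 and 1 call in each profile. Restricted to contacts of up to 2 Mb, the UNC1999 difference of EPHA2 was -1.15.

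EPHA3, another receptor of A-type ephrins, had more contacts called in all 3 profiles than any other of the 50 genes. It lies on chromosome 3 at 89107621-89482134, and 2 adjacent captured fragments cover its start. They were joined in 12 contacts to a stretch 854 to 906 kb upstream (chr3:88199901-88257059) that lay between protein-coding genes. DMSO called 8 of these contacts, UNC6852 9 and UNC1999 8, and 6 were called in all 3. On the first bait the fragment at 888 kb scored 12.1, 11.2 and 7.54, and on the second 12.9, 7.61 and 6.08. The fragment at 905 kb scored 7.47, 8.81 and 10.0 on the first bait and 9.83, 10.2 and 7.27 on the second. Both baits therefore reached these fragments in every profile. The order of the profiles was the same on both baits at 888 kb and differed between them at 905 kb. The first bait includes the sequence printed above. Over its 16 contacts EPHA3 had mean asinh scores of 1.84, 2.04 and 2.07. It held 6 of the 17 contacts of all genes that were called in 3 profiles, and without it the share of DMSO calls found again was 15.7% in both treated profiles.

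EPHB3 and EPHB6 had the most contacts, 27 and 37. EPHB3 binds B-type ephrins and was joined to a stretch 145 to 220 kb away (chr3:184724662-184804902) in 24 contacts. DMSO called 11 of them, UNC6852 8 and UNC1999 13. One captured fragment in this stretch gave the highest score of all 281 contacts: with the EPHB3 start at 217 kb it scored 12.1, 11.8 and 18.1. With the 3′ end of the gene it scored 9.11, 5.38 and 9.42. These were the 2 EPHB3 contacts called in all 3 profiles. The same captured fragment was also listed with baits at the 3′ end, and there it was called in UNC1999 alone. It scored 3.15, 4.02 and 5.24 with one bait and 1.21, 1.07 and 6.43 with another. Of the 27 contacts of EPHB3, 24 were at its 3′ end. The gene's differences were -0.09 and 0.16.

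EPHB6, an Eph receptor without kinase activity, had 15, 15 and 13 calls, yet 1 contact called in all 3 profiles. That contact, at 364 kb with a fragment at the bitter taste receptor gene TAS2R40, scored 7.64, 7.56 and 7.04. Upstream, 15 contacts fell in a stretch 462 to 548 kb away with 6, 7 and 6 calls, and none of them was called in all 3. Fragments within this stretch had different high profiles: at 473 kb the scores were 10.2, 0.08 and 0.91, and at 506 kb they were 3.02, 14.4 and 8.44. Mean asinh scores of the gene were 1.75, 1.70 and 1.68 all the same. Near-equal means thus came with little overlap of the calls, which was common: 8.33% of all cis contacts were called in all 3 profiles. Where only the 5 EPHB6 contacts whose scores averaged 5 or more were kept, the differences were 0.93 and 0.79.

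**Figure D4:**
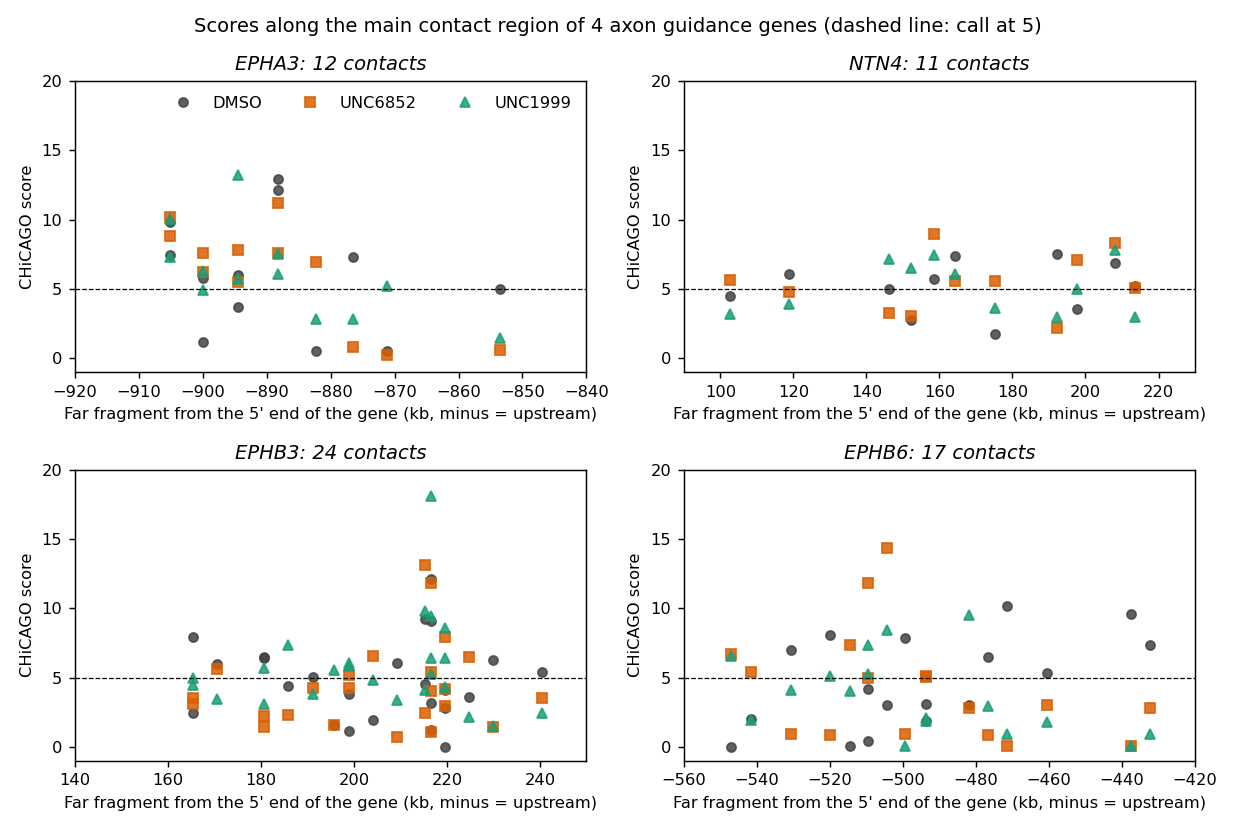
CHiCAGO scores (vertical axis, dashed line at the call of 5) of contacts along the main contact stretch of EPHA3, NTN4, EPHB3 and EPHB6, against the distance of the far fragment from the gene's 5′ end in kb. Each contact has 1 point for DMSO, UNC6852 and UNC1999. Near -888 kb at EPHA3 and near 160 and 208 kb at NTN4 all 3 profiles exceed 5. Near 216 kb at EPHB3 some contacts have all 3 profiles above 5 and others do not. Along the EPHB6 stretch high points of different profiles alternate.

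The other Eph receptors had fewer contacts. EPHA6 had 11, with 1 call in DMSO and 5 in each treated profile, and differences of 0.68 and 0.60. Contacts with a DMSO score of 0 made up 5 of the 11, and 3 of the UNC6852 calls, of 9.30, 8.66 and 8.41, scored 0 in DMSO and no more than 0.01 in UNC1999. The strongest contact of EPHA6, over 478 kb, was even across the profiles at 4.65, 5.15 and 4.83. EPHB1 had 4 contacts, scoring 0 in DMSO in 3 of them and 0.63 in the other. Its treated scores reached 5.94 in UNC6852 and 5.19 in UNC1999, with differences of 1.42 and 1.02. No EPHB1 contact was called in both, where 29.1% of UNC6852 calls elsewhere were also called in UNC1999. The strongest, over 197 kb inside the gene, scored 0, 1.93 and 5.19. EPHA10, which like EPHB6 lacks kinase activity, had 2, 5 and 1 calls and differences of 0.98 and -0.21. Of its 8 contacts, 3 spanned more than 100 Mb of chromosome 1. The strongest, over 1052 kb, scored 6.54, 4.08 and 1.60. EPHB2 had 8 contacts with 3, 2 and 4 calls and differences of -0.08 and 0.31. Its highest score, 9.44 in DMSO, joined its own start and 3′ end over 212 kb, with 1.73 in UNC6852 and 3.45 in UNC1999. The strongest, over 183 kb inside the gene, scored 3.62, 3.54 and 5.78.

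Slits are secreted repellents of the nervous system's midline and Robo proteins their receptors. The 3 Slit genes had 23 contacts with 9, 8 and 6 calls. Every contact was called in a single profile, beside 77.5% of all cis contacts. SLIT1 on chromosome 10 was joined from 2 baits to a stretch 108 to 141 kb inside the gene in 6 contacts. DMSO called 5 of them, UNC6852 1 and UNC1999 none. The scores changed less than the calls did: the strongest was 8.60, 4.48 and 4.22, and the UNC6852 scores in the stretch all lay between 3.67 and 5.07. The gene's differences were -0.38 and -0.60. With ends of 5000 bp, and 20 contacts, the second became 0.06.

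SLIT2, whose upstream sequence is printed above, had the opposite order. The printed stretch carried 1 contact, over 1012 kb, with 0, 5.47 and 0, and the other 5 were on the neighbouring captured fragment. In DMSO 5 of its 6 contacts scored 0 and the sixth 0.83. UNC6852 had 3 calls, of 5.47, 5.31 and 5.05, and UNC1999 had 3 others, of 5.35, 6.54 and 8.66. The calls of the treated profiles did not coincide at any contact, where 29.1% of UNC6852 calls elsewhere were also called in UNC1999. Adjacent fragments at 465 and 470 kb carried 2 of the UNC1999 calls. The differences were 1.18 in both profiles, and at 5000 bp, with 14 contacts, 0.15 and 0.18. SLIT3 had 8 contacts with 3, 3 and 2 calls, and its strongest, with the end of SPDL1 at 278 kb, scored 8.36, 2.93 and 4.76. Its differences were 0.29 and 0.30.

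Of the receptors, ROBO3, which governs crossing of the midline, had 9 contacts with 3, 4 and 3 calls and differences of 0.04 and 0.17. A fragment 208 kb upstream in SIAE was reached by different baits with scores in opposite order, 2.21, 5.20 and 6.52 on one and 6.35, 3.18 and 2.14 on the other. ROBO1 and ROBO2 had 2 contacts each. The highest of these, at ROBO1 over 845 kb, scored 9.49, 2.69 and 0.61.

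Netrins attract or repel axons by way of DCC and UNC5 receptors. NTN4, a netrin of basement membranes on chromosome 12 at 95657807-95791155, had 11 contacts from 1 bait, and no score of 0 in any profile. It had 7, 7 and 6 calls, and 3 were shared by all profiles. Those 3 scored 6.87, 8.33 and 7.78 at 209 kb, 7.39, 5.59 and 6.07 at 165 kb and 5.69, 8.99 and 7.44 at 159 kb. Their fragments lay past the 3′ end of the gene, between genes. The differences were 0.05 and 0.02. NTN1, the founding attractant, had 3 contacts with 0, 2 and 1 calls, the strongest over 116 kb at 3.06, 6.22 and 1.37, and differences of 0.21 and -0.16.

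DCC, the receptor for attraction to netrin, had 11 contacts from 2 baits and spans more than a megabase of chromosome 18. Far inside the gene, 566 kb from the start, 1 fragment was reached by both baits with 5.96, 5.48 and 0.58 and with 6.29, 5.39 and 2.53. At this fragment both baits thus had DMSO and UNC6852 above 5 and UNC1999 below. The adjacent fragments differed: at 560 kb the first bait scored 5.06, 1.84 and 0.59, and at 572 kb the second scored 0.97, 1.53 and 5.11. Upstream, 4 contacts 674 to 683 kb away had 0, 3 and 2 calls, and 1 of them was called in both treated profiles. The strongest contact of DCC, over 350 kb inside the gene, scored 4.06, 6.82 and 6.20. The gene's differences were 0.23 and -0.07. Of the repulsion receptors, UNC5A had 8 contacts with 4, 1 and 4 calls. A fragment 143 kb upstream scored 7.38, 2.14 and 6.41, and the gene's differences were -0.05 and 0.35. The second turned to -0.54 when scores were first averaged per bait. UNC5C had 13 contacts with 6, 5 and 5 calls and differences of 0.08 and 0.02. A captured fragment 1.86 kb inside its start met the 3′ end of the gene over 385 kb with scores of 6.18, 6.59 and 5.68. Other captured fragments at the start met the same 3′ fragment less evenly. One scored 0.52, 8.38 and 1.48, and another 7.15, 2.86 and 5.84. The neighbouring BMPR1B, a BMP receptor gene, was reached at 392 kb with 7.78 in DMSO and 0.44 in both treated profiles.

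Semaphorins mostly repel axons. The 9 semaphorin genes had 6 contacts in all. SEMA6D, a transmembrane semaphorin, had 3 of them, each called in a different profile. The calls were 5.15 in DMSO over 822 kb, 6.03 in UNC6852 over 698 kb and 5.10 in UNC1999 over 812 kb. Its differences were 0.21 and -0.91, the second of which became -0.12 over the 14 contacts found at 5000 bp. SEMA3B had 2 contacts and SEMA3F 1, none of them called in all 3 profiles, beside 8.33% of all cis contacts. Secreted semaphorins bind neuropilins, and NRP1 and NRP2 had 3 and 10 contacts. NRP2 had 2, 5 and 3 calls, each contact called in a single profile, beside 77.5% of all cis contacts. Its highest score, over 1577 kb, was 11.9, 0 and 3.71. Its strongest contact, over 214 kb, scored 3.75, 5.92 and 1.58. Its differences were 0.27 and 0.46. NRP1 differed by 0.61 and 0.07, and its strongest contact, over 221 kb, scored 5.37, 3.46 and 3.60.

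Plexins pass the semaphorin signal into the cell. PLXNA2 on chromosome 1 had 12 contacts with 5, 6 and 6 calls and differences of 0.16 and 0.05. A pair of adjacent baits at its start, of which the first includes the printed stretch, was joined to its own 3′ end. Over 222 kb the first bait scored 7.28, 6.34 and 12.0, and over 223 kb the second scored 9.99, 8.99 and 5.92. Both contacts were called in every profile, and the profile with the highest score differed between the baits. Contacts joining both ends of 1 gene over at least 20 kb made up 5 of the 281 contacts (1.78%), at PLXNA2, UNC5C and EPHB2, beside 201 of all contacts of any gene (0.435%). PLXNA1 had 3 contacts, the strongest over 299 kb at 3.43, 0.77 and 5.25, and differences of -0.77 and 0.63, and at 5000 bp the second became -0.35.

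RGMA, a repulsive molecule that binds neogenin, had 21 contacts, with 11, 7 and 5 calls. None was called in all 3 profiles, beside 8.33% of all cis contacts. The printed upstream sequence of RGMA lies on 1 of the 2 baits at its start. A stretch 232 to 296 kb away was joined to the gene in 8 contacts from 5 baits, with 5, 1 and 4 calls. The strongest of them, over 241 kb, scored 6.36, 6.73 and 4.88 on the bait with the printed sequence, and the same fragment on the other scored 5.73, 3.68 and 5.58. The differences were 0.28 and -0.35, and with scores averaged per bait the second was 0.21.

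The far fragment reached an end of another protein-coding gene in 23 contacts (8.19%), with 24 partner genes, beside 19.3% of the contacts of all genes. For all genes a contact was counted once for each gene it touched, which gave 56723 from 46182 contacts. Of the 23, 22 were called in 1 profile (95.7%), beside 78.0% of such contacts of all genes, and 1, EPHB6 with TAS2R40, was called in all 3. No contact joined 2 of the 50 genes. EPHB3 met the ends of THPO and CHRD, the gene of the BMP antagonist chordin, over 183 kb, at 5.08 in DMSO, under the call in UNC6852 and 0.26 in UNC1999. EPHB2 met ASAP3 over 778 kb with 0, 0 and 9.32, and LACTBL1 over 240 kb with 1.02, 5.07 and 0. EFNA1 met CHRNB2, a nicotinic receptor subunit gene, over 552 kb with 5.27, 0.19 and 0. SLIT1 met OPALIN over 842 kb with 0, 0 and 6.21. ROBO3 met the olfactory receptor gene OR8B4 over 440 kb with 0, 6.38 and 0.84. In these contacts the called profile was DMSO, UNC6852 or UNC1999 in turn, with no profile common to all.

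A list of 52 further genes of the pathway, among them class 4 and 7 semaphorins, cell adhesion molecules and intracellular effectors, held 23 genes with at least 3 contacts. Against DMSO, UNC6852 was higher at 15 of them and lower at 8 (56.4% and 43.5% of all genes), and UNC1999 was higher at 9 and lower at 14 (49.1% and 50.9%). A difference of 0.5 or more upward was found in 1 and 2 of them (18.3% and 15.7% of all genes), and downward in 4 and 3 (13.6% and 16.3%). SEMA4F, with 9 contacts, differed by -1.40 and -1.07, and SEMA7A, with 3, by 1.62 and 0.59. SRGAP1, an effector of Slit and Robo signalling, had 28 contacts, 9 of them called in all 3 profiles, with differences of 0.09 and -0.07. DPYSL5, a mediator of semaphorin responses in the cell, had 36 contacts and 6 such calls, with 0.15 and -0.02.

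Contacts between chromosomes were listed at these genes as well, 459 in all. DMSO called 150 of them, UNC6852 160 and UNC1999 150, where 30.0%, 34.3% and 36.1% of all such contacts were called. At the axon guidance genes the shares were 32.7%, 34.9% and 32.7%.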

How the data were processed

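Poised-enhancer capture Hi-C was done in HNES1 cells with 15 libraries per condition. The authors deposited 1 table of CHiCAGO scores per pair of fragments, with 1 pooled column for each condition, per the file headers and the labels. Per the submitters' processing notes the build is GRCh38. Settings of the aligner and caller are not given in the sources used here. No score was below 0 in the values, and every listed pair reached 5 somewhere. Read depth is unknown.

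Genes and ends came from RefSeq (GRCh38.p14, 20056 protein-coding genes placed), and strand from its promoter table, which lacked 8 of the 50 genes. A contact was assigned to a gene within 1000 bp of either outermost end and called at a score of 5. Scores were asinh-transformed and averaged over the contacts of genes with at least 3 of them. A difference of 0.5 served as a fixed size. Contacts of 1 gene whose far fragments lay within 15 kb were joined to stretches, a rule chosen after values were seen. Shares carry exact (Clopper-Pearson) 95% intervals. With 1 pooled profile per condition no test was possible. All genes with at least 3 contacts are described, each with its strongest contact by mean asinh score, and with a choice of its contacts called in all 3 profiles, contacts with partner genes and stretches. Some further contacts were named after their values were seen. The members and lists were chosen with earlier results of these data known. The calculation was tested on simulated data. Alternatives were other thresholds, windows, scales, scalings and subsets of contacts, and omission of EPHB6 or EPHA3, the last 2 chosen after seeing the data. Python 3.11.15, numpy 2.4.6, pandas 2.3.3, scipy 1.17.1 and matplotlib 3.10.9 were used.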

Additional observations from a re-analysis of the deposited data

Results flagged for a closer look

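Contacts between chromosomes lie outside the measurement of cis contacts. At the ends of the 50 axon guidance genes 459 were listed, and DMSO called 150 of them, UNC6852 160 and UNC1999 150. The 160 calls drew attention because they exceed the control profile by 10. Of all contacts between chromosomes 30.0%, 34.3% and 36.1% were called in the same order, beside 32.7%, 34.9% and 32.7% at these genes. None of the 459 was called in all 3 profiles and 1 was called in more than 1. Of all 281836 contacts between chromosomes, 370 were called in all 3 profiles and 942 in 2 or more. Calls of the profiles thus hardly coincided at these genes or elsewhere. The difference has no replicate error and was not tested.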

How the results depend on the processing

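No paired analysis was possible because each condition is deposited as 1 pooled column. For the same reason no library could be left out. Of 149 group results under the alternatives 109 stayed within 1.5 times the count, or within the interval, of the value reported. The median difference over the axon guidance genes was small and changed sign in some alternatives for both compounds. For UNC6852 it went from 0.07 to -0.007 after quantile normalization and to -0.03 over genes with any contact. Among contacts averaging 5 or more it was -0.002. For UNC1999 it went from 0.03 to -0.03 at gene ends of 5000 bp and to -0.06 at 0 bp. Where the gene lay on the other end only it was -0.008. At a threshold of 7 the calls of DMSO, UNC6852 and UNC1999 were 37, 36 and 28, and at 10 they were 7, 8 and 4, with 28.6% of the DMSO calls found again in UNC6852. Gene ends of 5000 bp gave 353, 351 and 299 calls, 29.5% found again in UNC6852, and 2 genes higher by 0.5 or more in UNC1999. EPHB3 held 185 of the 772 contacts there. Gene ends of 0 bp gave 36, 32 and 29 calls among 79 contacts. Of the 12 genes with at least 3 of these contacts, 6 were higher in each treated profile. In UNC6852 and UNC1999, 3 and 1 of them were higher by 0.5, and 2 and 2 lower by 0.5. On the log2(score + 1) scale 2 genes were higher by 0.5 in UNC1999. With at least 5 contacts per gene, 3 and 3 genes were higher by 0.5 and 2 and 3 lower. Contacts of a mean score of at least 5 left 6 genes, with 3 and 4 higher, 1 and 1 higher by 0.5 and 1 and 1 lower by 0.5. With the gene on the bait only, 3 genes were lower by 0.5 in UNC6852. With the gene on the other end only, 8 genes remained, 5 and 4 higher, 2 and 1 higher by 0.5 and 2 and 1 lower by 0.5. Means over baits gave 8 genes higher by 0.5 in UNC6852. Apart from the stricter thresholds and the smaller sets of genes and contacts, the cause was not tested. For single genes, alternatives that leave a gene's value as it is were not counted. Of the other 276 values 245 moved by less than 0.5. Of the 23 differences of 0.5 or more, 9 stayed past 0.5 in each alternative counted, and 2 changed sign: at 5000 bp the UNC1999 differences of PLXNA1 and SLIT1 turned to -0.35 and 0.065. Of the 33 smaller differences 17 changed sign in at least 1 alternative, among them UNC1999 at RGMA, from -0.35 to 0.57 with the gene on the other end only, and at UNC5A, from 0.35 to -0.54 with means over baits. The cause was not tested. EPHA2 passed 0.5 downward in both contrasts in each of 5 such alternatives, and EPHB1 upward in each of 3. Quantile normalization moved the median of all genes in UNC6852 from 0.07 to -0.01 and the number of axon guidance genes higher from 16 to 13. The unknown depth and the pooling limit every value.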
